A study of Mus musculus with 3 samples.

Results

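Retinoic acid is removed from embryonic tissue by a small set of enzymes. The genes described here are the 3 cytochrome P450 genes of the Cyp26 family, Cyp26a1, Cyp26b1 and Cyp26c1, and Dhrs3, a short-chain dehydrogenase/reductase gene. They were chosen by name, and every array probe whose transcript accession belonged to one of them was taken. Of these 4 genes, 3 were matched to a probe on the array, out of 16535 genes so matched. Cyp26a1 and Cyp26b1 had 1 probe each and Dhrs3 had 2, and all 4 probes passed the filter on dim probes. Cyp26c1 was not matched to a probe, so its RNA level was not analysed here. Of 41174 probes, 17800 matched no gene, so whether one of them measures Cyp26c1 is not known.

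Agilent one-colour arrays measured total RNA of male mouse gonads taken at embryonic day 14.5. All embryos were of a mouse line named MCH in the labels. Single knockouts carried the genotype Cyp26b1-/-/Stra8+/+, double knockouts carried Cyp26b1-/-/Stra8-/-, and wild-type embryos carried Cyp26b1+/+/Stra8+/+, with 2 arrays per genotype. The sources used here do not say how the alleles were made, which exons are missing, or how many embryos went into a sample. The design text calls the duplicates biological, and nothing says how they were separated, so the p-values here cover the spread between 2 arrays of a genotype and no more. Double knockouts lack Cyp26b1 as well as Stra8, so the effect of losing Stra8 alone was not measured.

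Retinoic acid is made from retinol through retinaldehyde and acts through nuclear receptors that bind direct repeats of a short half-site in DNA. CYP26 enzymes oxidise it to inactive products, while DHRS3 turns retinaldehyde back into retinol and so lowers the supply. In the fetal testis CYP26B1, which is made in Sertoli cells, keeps retinoic acid away from germ cells, and Stra8 is a retinoic acid target needed for entry into meiosis. Cyp26a1, Dhrs3 and the receptor gene Rarb are widely used as genes that retinoic acid induces.

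The sequences shown first are the 150 bases before the gene start of Cyp26a1 and Rarb, whose promoters held a direct repeat, and those of Cyp26b1 and Dhrs3, whose promoters held none. They are from RefSeq on GRCm38.p6, written 5′ to 3′ on the strand of the gene, and capitals mark the half-sites of a repeat. The Cyp26a1 stretch lies at chr19:37697658-37697807 (plus strand), that of Rarb at chr14:16575477-16575626 (minus strand), that of Cyp26b1 at chr6:84593811-84593960 (minus strand) and that of the first listed Dhrs3 start at chr4:144892677-144892826 (plus strand).
Cyp26a1: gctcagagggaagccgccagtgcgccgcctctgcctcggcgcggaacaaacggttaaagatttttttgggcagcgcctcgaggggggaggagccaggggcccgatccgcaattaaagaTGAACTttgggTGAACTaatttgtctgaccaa
Rarb: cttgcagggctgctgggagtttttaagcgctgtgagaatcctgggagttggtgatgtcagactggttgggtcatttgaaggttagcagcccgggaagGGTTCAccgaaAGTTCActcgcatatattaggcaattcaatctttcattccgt
Cyp26b1: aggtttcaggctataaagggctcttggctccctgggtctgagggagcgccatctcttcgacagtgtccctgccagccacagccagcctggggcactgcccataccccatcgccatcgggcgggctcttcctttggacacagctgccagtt
Dhrs3: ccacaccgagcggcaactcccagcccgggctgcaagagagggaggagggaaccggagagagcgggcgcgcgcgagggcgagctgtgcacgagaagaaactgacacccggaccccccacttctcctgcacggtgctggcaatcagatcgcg

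Windows from 250 bases before to 50 bases after each start were searched on both strands for pairs of half-sites in direct repeat (the consensus AGGTCA, its variant AGTTCA, a further variant GGGTCA and the last variant GGTTCA), with 1, 2 or 5 bases between them. In Cyp26a1 the repeat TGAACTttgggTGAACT lay at chr19:37697776-37697792, from position -32 to position -16 relative to the start, with 5 bases between 2 copies of AGTTCA on the opposite strand. In Rarb the repeat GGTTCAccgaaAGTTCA lay at chr14:16575513-16575529, from position -53 to position -37, also with 5 bases between the half-sites. A repeat with 5 bases between was found in 32 of 32851 promoter windows, or 0.0974%, and a repeat with any of the 3 spacings in 193 windows, or 0.588%. Of 44 genes on the pathway lists below, 33 had a promoter entry, and 2 of them held a repeat, namely Rarb and Bco1. At least 1 half-site occurred in 43.7% of all windows, in that of Cyp26a1, and in none of those of Cyp26b1, Cyp26c1 or the 3 listed starts of Dhrs3. A match describes letters in this window only.

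The 6 arrays had upper-quartile signals of 997 to 1532 and 62.6 to 69.2% of 43379 gene spots well above background. Genes that mark Sertoli, germ and fetal Leydig cells were well above background on every array, for all 8, 5 and 4 of their tested markers. Foxl2 and Irx3, on the list of ovarian somatic genes, did not reach that level on both arrays of a genotype. The other genes of that list, Fst, Wnt4, Rspo1 and Bmp2, were well above background on every array. Each genotype lay on a slide of its own, so slide and genotype cannot be told apart. The 2 KO-labelled arrays were scanned on a day of their own, so for them the day and the genotype cannot be told apart either, whereas the DKO-labelled and wild-type arrays shared a scan day. The Cyp26b1 and Stra8 probes did not follow the labels, as described below, so groups are named here by their labels. KO-labelled arrays are those labelled Cyp26b1 knockout, and DKO-labelled arrays those labelled double knockout.

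Cyp26a1 was at or near background in wild-type gonads and clearly measured in both kinds of mutant. Its processed spot signal was 380 and 590 units on the arrays labelled Cyp26b1 knockout and 679 and 696 units on those labelled double knockout, against 28.6 and 16.7 units on the wild-type arrays. The scanner's own error was 38.1 to 69.8 units for the 4 mutant spots and 5.39 and 5.20 units for the wild-type spots, and the fainter wild-type spot was not well above background. On the log2 scale, relative to the 75th percentile of each array, the levels were -1.36 and -0.90 in the KO-labelled arrays, -0.83 and -1.01 in the DKO-labelled arrays, and -5.46 and -6.48 in the wild-type arrays. All 4 mutant arrays were above both wild-type arrays by more than 4 log2 units, and the mutant genotypes overlapped.

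Against wild type, Cyp26a1 rose in the KO-labelled arrays by a log2 change of 4.84 ± 0.32 (standard error), or 28.7-fold, with a 95% interval of 4.10 to 5.59 (limma, adjusted p = 8.79e-05). In the DKO-labelled arrays it rose by 5.05 ± 0.32, or 33.1-fold, with an interval of 4.30 to 5.80 (limma, adjusted p = 0.000382). These are fitted values, since only 1 of the 2 wild-type arrays measured the probe well above background. Without the other wild-type array the changes were 4.34 in the KO-labelled and 4.54 in the DKO-labelled arrays. The size of both changes depends on the background correction: normexp with an offset of 50 gave 1.57 in the KO-labelled arrays and 1.81 in the DKO-labelled arrays, each still past the threshold (limma, adjusted p = 0.000108 and 3.19e-05). In these whole gonads, a change in the number of cells of a type and a change in RNA per cell cannot be told apart. Between the mutants, Cyp26a1 differed by 0.21 in the DKO-labelled minus the KO-labelled arrays, with an interval of -0.54 to 0.95, and did not pass the test (limma, adjusted p = 0.625).

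**Figure D1:**
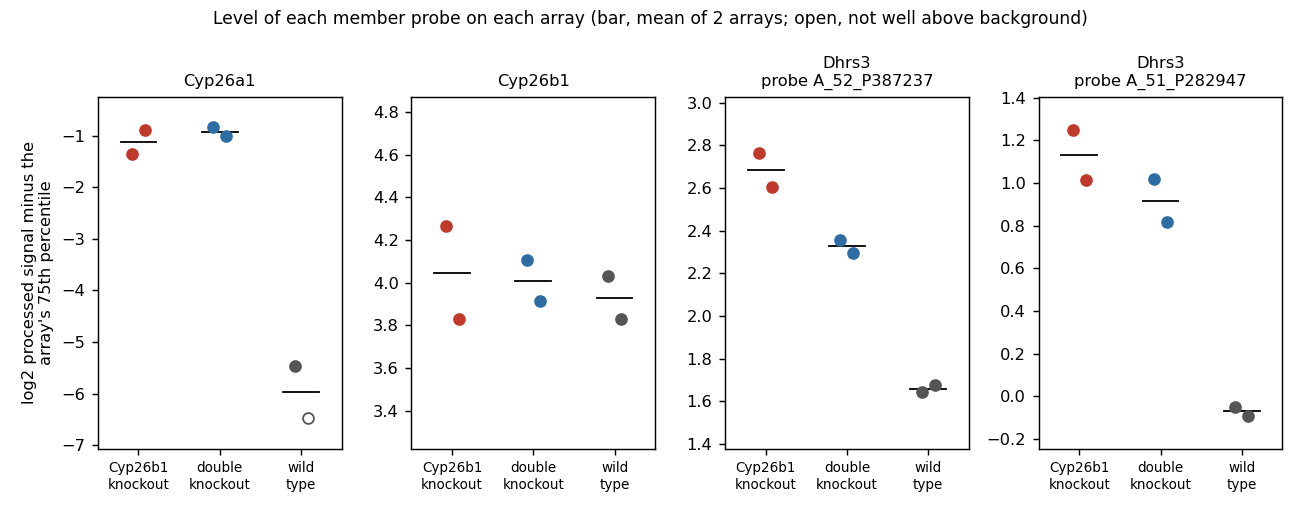
Level of each probe on the 2 arrays of each genotype, as log2 processed signal minus the array's 75th percentile. Points are arrays, bars are means of 2, an open point is not well above background, and the y axes differ between panels. Cyp26a1 and both Dhrs3 probes lie higher in all 4 mutant arrays than in both wild-type arrays, and the Cyp26b1 values overlap between genotypes.

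Dhrs3, which makes the reductase that returns retinaldehyde to retinol, was also higher in both mutants, on both of its probes. The brighter probe, A_52_P387237, had log2 levels of 2.76 and 2.60 in the KO-labelled arrays, 2.36 and 2.30 in the DKO-labelled arrays, and 1.64 and 1.68 in the wild-type arrays. Its 3 genotypes did not overlap, with the DKO-labelled arrays in between. The dimmer probe, A_51_P282947, had 1.25 and 1.01 in the KO-labelled arrays, 1.02 and 0.82 in the DKO-labelled arrays, and -0.05 and -0.09 in the wild-type arrays. On this probe the mutant genotypes touched, with 1.01 in one array labelled Cyp26b1 knockout and 1.02 in one labelled double knockout.

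Against wild type, the brighter Dhrs3 probe rose in the KO-labelled arrays by 1.02 ± 0.09, or 2.03-fold (95% interval 0.82 to 1.23; limma, adjusted p = 0.000167). The dimmer probe rose there by 1.20 ± 0.11, or 2.30-fold (interval 0.93 to 1.47; limma, adjusted p = 0.000227). In the DKO-labelled arrays the brighter probe rose by 0.67 ± 0.09, or 1.59-fold (interval 0.46 to 0.87; limma, adjusted p = 0.00535), and the dimmer by 0.99 ± 0.11, or 1.98-fold (interval 0.72 to 1.25; limma, adjusted p = 0.00343).

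The 2 Dhrs3 probes gave different calls for the DKO-labelled against the KO-labelled arrays. The brighter probe was lower by a log2 change of -0.36 ± 0.09 (interval -0.56 to -0.15; limma, adjusted p = 0.0137). This call was lost without Cyp26b1 knockout replicate 1 (-0.28, adjusted p = 0.0541), without double knockout replicate 2 (-0.33, adjusted p = 0.0715) and with normexp background correction (-0.37, adjusted p = 0.166). The dimmer probe changed by -0.21 ± 0.11 (interval -0.48 to 0.05) and did not pass (limma, adjusted p = 0.162).

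Cyp26b1 is the targeted gene, and its probe did not separate the genotypes. Its log2 levels were 4.27 and 3.83 in the KO-labelled arrays, 4.11 and 3.91 in the DKO-labelled arrays, and 4.03 and 3.83 in the wild-type arrays. In spot signal these were 18728 and 15629 units in the KO-labelled arrays, 20825 and 21074 units in the DKO-labelled arrays, and 20637 and 21226 units in the wild-type arrays, all of them well above background and none saturated. The 3 genotypes overlapped. The log2 change was 0.12 ± 0.15 in the KO-labelled arrays (95% interval -0.24 to 0.48; limma, adjusted p = 0.546) and 0.08 ± 0.15 in the DKO-labelled arrays (interval -0.28 to 0.44; limma, adjusted p = 0.773), both minus wild type. Between the mutants it was -0.04 ± 0.15 (interval -0.40 to 0.32; limma, adjusted p = 0.854). The sources used here do not say where the probe lies relative to the deleted part of the gene, so its signal does not check the labels.

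Stra8, the other targeted gene, had log2 levels of 7.19 and 7.04 in the KO-labelled arrays, 5.98 and 6.14 in the DKO-labelled arrays, and 3.73 and 2.41 in the wild-type arrays. The arrays labelled as lacking Stra8 were therefore above both wild-type arrays on this probe, whose place relative to the deletion is also not given.

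**Figure D2:**
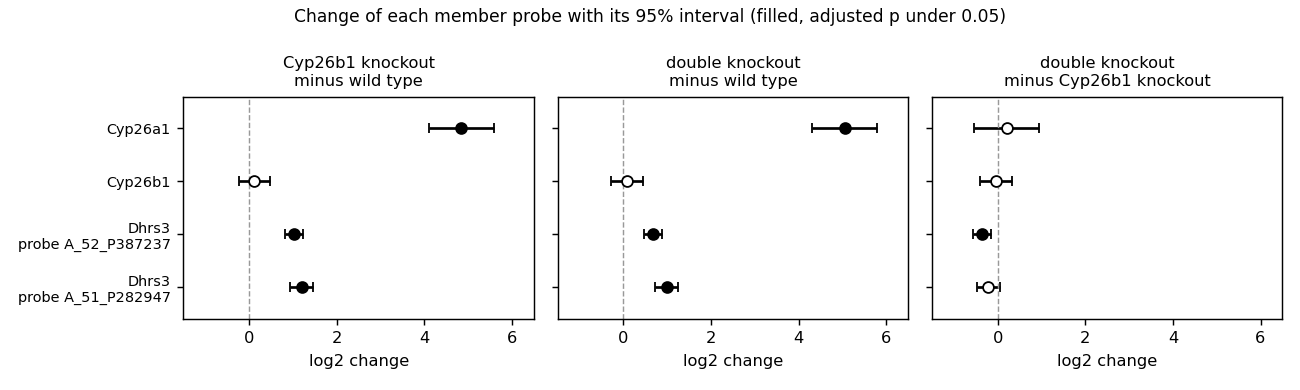
Log2 change of each probe (points) with its 95% interval (bars) in the 3 comparisons, filled where the adjusted p was under 0.05. Cyp26a1 and both Dhrs3 probes are filled and above 0 against wild type in both mutants, Cyp26b1 is open throughout, and between the mutants only the brighter Dhrs3 probe is filled, at -0.36.

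These calls stand against a background in which many genes differed. With 1 probe per gene, its brightest, 23.9% of 13300 tested genes were called higher and 30.5% lower in the KO-labelled arrays against wild type, and 2 of the 3 measured genes, Cyp26a1 and Dhrs3, were called higher there. The same 2 of 3 were called higher in the DKO-labelled arrays, where 6.86% of genes were called higher and 6.34% lower against wild type. This second background rests on few arrays: 1419 probes were called higher, and 315 when wild type replicate 2 was left out, 393 without wild type replicate 1, 629 without double knockout replicate 2 and 789 without double knockout replicate 1. Between the mutants, 29.5% were called higher and 18.4% lower in the DKO-labelled arrays, and 1 of the 3 measured genes, Dhrs3, was called lower. The median log2 change of all 13300 genes was -0.07 in the KO-labelled arrays and 0.03 in the DKO-labelled arrays against wild type, and 0.11 in the DKO-labelled against the KO-labelled arrays. Of the probes called, 47.2% were higher in the KO-labelled arrays against wild type, or 56.8% with the scaling of the authors' deposited value table. The same share was 44.1%, or 12.3% with that scaling, in the DKO-labelled arrays against wild type, and 51.5%, or 19.3%, in the DKO-labelled against the KO-labelled arrays. The scaling of that table shifts the log2 changes of all probes by 0.10, -0.20 and -0.30 in these 3 comparisons. Relative to the median of all tested probes, which such a shift leaves as it is, the brighter Dhrs3 probe changed by 1.06 in the KO-labelled arrays and 0.69 in the DKO-labelled arrays against wild type, and by -0.40 in the DKO-labelled against the KO-labelled arrays.

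Among genes of retinoic acid synthesis, Aldh1a1 fell in both mutants and Bco1 in the KO-labelled arrays, while Aldh1a3 rose in both. Of 10 listed genes 8 were tested; 2 rose and 5 fell in the KO-labelled arrays, with a median log2 change of -0.60. Against wild type, 1 rose and 1 fell in the DKO-labelled arrays, with a median of -0.01. Counts on the pathway and marker lists, here and below, are to be read beside the shares of all genes called higher and lower. These were 23.9% and 30.5% in the KO-labelled and 6.86% and 6.34% in the DKO-labelled arrays against wild type. For the DKO-labelled against the KO-labelled arrays they were 29.5% and 18.4%. Aldh1a1, a retinaldehyde dehydrogenase that makes retinoic acid, had log2 levels of 5.20 and 5.23 in the KO-labelled arrays, 5.50 and 5.33 in the DKO-labelled arrays, and 6.45 and 6.37 in the wild-type arrays, with no overlap between mutants and wild type. Its log2 level fell by 1.20 ± 0.09 in the KO-labelled arrays (limma, adjusted p = 0.000134) and by 0.999 ± 0.095 in the DKO-labelled arrays (limma, adjusted p = 0.00192).

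Aldh1a2, a second such dehydrogenase, fell by 0.48 ± 0.10 in the KO-labelled arrays (limma, adjusted p = 0.00497), and changed by -0.18 in the DKO-labelled arrays, where it did not pass (limma, adjusted p = 0.271). Aldh1a3, the third of these enzymes, rose by 0.42 ± 0.10 in the KO-labelled and 0.84 ± 0.10 in the DKO-labelled arrays (limma, adjusted p = 0.00996 and 0.00398). Bco1, which splits beta-carotene into retinaldehyde, was not well above background on either KO-labelled array. By the processed signal it was at least 6.11-fold lower there than in wild type (limma, adjusted p = 0.00144). Its level in the DKO-labelled arrays, -4.02 on the log2 scale, did not pass against the wild-type level of -4.13 (limma, adjusted p = 0.897). Without wild type replicate 2 the rise of Aldh1a3 in the KO-labelled arrays was 0.37 and did not pass (limma, adjusted p = 0.0711). With normexp, Aldh1a2 (-0.33), Aldh1a3 (0.30) and Bco1 (-1.57) in the KO-labelled arrays and Aldh1a1 in the DKO-labelled arrays (-0.87) did not pass.

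The 6 tested genes of retinaldehyde reduction, the step that DHRS3 also carries out, were mixed. In the KO-labelled arrays 3 rose and 1 fell (median 0.13), and in the DKO-labelled arrays 0 of 6 passed limma's adjusted threshold (median 0.12), while 1 was higher at an unadjusted p under 0.05. Rdh12 rose by 1.19 ± 0.15 and Rdh13 by 0.56 ± 0.12 in the KO-labelled arrays (limma, adjusted p = 0.000651 and 0.00567). Rdh14 fell there by 0.52 ± 0.08 (limma, adjusted p = 0.00152), and Dhrs4 rose by 0.27 ± 0.09 (limma, adjusted p = 0.0358). These 4 genes changed in the DKO-labelled arrays by -0.29, -0.15, 0.16 and 0.11, none past the threshold. Dhrs4 did not pass when any single array was left out (0.21 to 0.32; adjusted p = 0.0501 to 0.192), and with normexp Rdh13 (0.23), Rdh14 (-0.21) and Dhrs4 (0.25) did not pass.

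Of the genes for retinoid transport, binding and storage, 9 of 10 were tested. In the KO-labelled arrays 4 rose and 2 fell (median 0.11), and in the DKO-labelled arrays 4 rose and 0 fell by limma's adjusted p (median 0.17), with 3 lower at an unadjusted p under 0.05. Lrat, which esterifies retinol for storage, had log2 levels of -2.95 and -2.26 in the KO-labelled arrays, -1.93 and -1.85 in the DKO-labelled arrays, and -4.05 and -4.34 in the wild-type arrays. It rose by 1.59 ± 0.24 in the KO-labelled arrays, where its other probe gave 0.46, and by 2.31 ± 0.24 in the DKO-labelled arrays, where its other probe gave 2.04 (limma, adjusted p = 0.00132 and 0.00237 for the brighter probe). With normexp the Lrat change was -0.07 in the KO-labelled arrays (adjusted p = 0.934) and 0.59 in the DKO-labelled arrays (adjusted p = 0.898), neither past the threshold. Dgat1, an acyltransferase that can also esterify retinol, rose by 1.54 ± 0.12 in the KO-labelled arrays (limma, adjusted p = 0.00014) and changed by 0.17 in the DKO-labelled arrays (limma, adjusted p = 0.399). Rbp4, the serum retinol carrier gene, changed by 0.11 in the KO-labelled arrays (limma, adjusted p = 0.368) and rose by 0.68 ± 0.10 in the DKO-labelled arrays (limma, adjusted p = 0.00711). The call of Rbp4 was lost without wild type replicate 1 (0.60, adjusted p = 0.0583).

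Among 10 receptor and coregulator genes, 5 rose and 3 fell in the KO-labelled arrays (median 0.31), and 2 rose and 0 fell in the DKO-labelled arrays (median 0.12; 0 lower at an unadjusted limma p under 0.05 too). Rarb, retinoic acid receptor beta, whose promoter repeat is shown above, had log2 levels of 0.40 and 0.53 in the KO-labelled arrays, 0.44 and 0.40 in the DKO-labelled arrays, and -1.52 and -1.44 in the wild-type arrays. Both mutants were apart from wild type and overlapped each other, as for Cyp26a1. Rarb rose by 1.95 ± 0.10 in the KO-labelled and 1.90 ± 0.10 in the DKO-labelled arrays (limma, adjusted p = 4.67e-05 and 0.000214). It changed by -0.04 in the DKO-labelled against the KO-labelled arrays (limma, adjusted p = 0.734). Rara, the alpha receptor, rose by 1.21 ± 0.22 in the KO-labelled arrays (limma, adjusted p = 0.00304) and changed by -0.12 in the DKO-labelled arrays (limma, adjusted p = 0.757). The retinoid X receptor genes Rxrb and Rxrg, whose products pair with these receptors, rose by 0.83 ± 0.08 (1.59 on the other Rxrb probe) and 0.998 ± 0.182 in the KO-labelled arrays (limma, adjusted p = 0.000249 and 0.00316). Both missed the threshold in the DKO-labelled arrays, with changes of 0.26 and 0.33 (limma, adjusted p = 0.0798 and 0.27). With normexp, Rara turned to -0.44 (adjusted p = 0.764) and Rxrg gave 0.28 (adjusted p = 0.701) in the KO-labelled arrays.

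Of 12 genes known to respond to retinoic acid, 8 rose and 2 fell in the KO-labelled arrays, with a median of 1.08, or 0.72 with dim genes at their bound. The DKO-labelled arrays had 7 higher and 0 lower by limma's adjusted p, and 0 lower at an unadjusted p under 0.05, with a median of 0.75. Some genes, among them Rarb, Nrip1 and Crabp2, are counted on this list and on one of the lists above, and Stra8 is a targeted gene. Rec8, a meiotic cohesin gene, rose by 2.76 ± 0.16 in the KO-labelled and 3.06 ± 0.16 in the DKO-labelled arrays (limma, adjusted p = 7.34e-05 and 0.000236). Crabp2, which carries retinoic acid to its receptors, changed by -0.38 in the KO-labelled and -0.44 in the DKO-labelled arrays and did not pass (limma, adjusted p = 0.249 and 0.306).

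**Figure D3:**
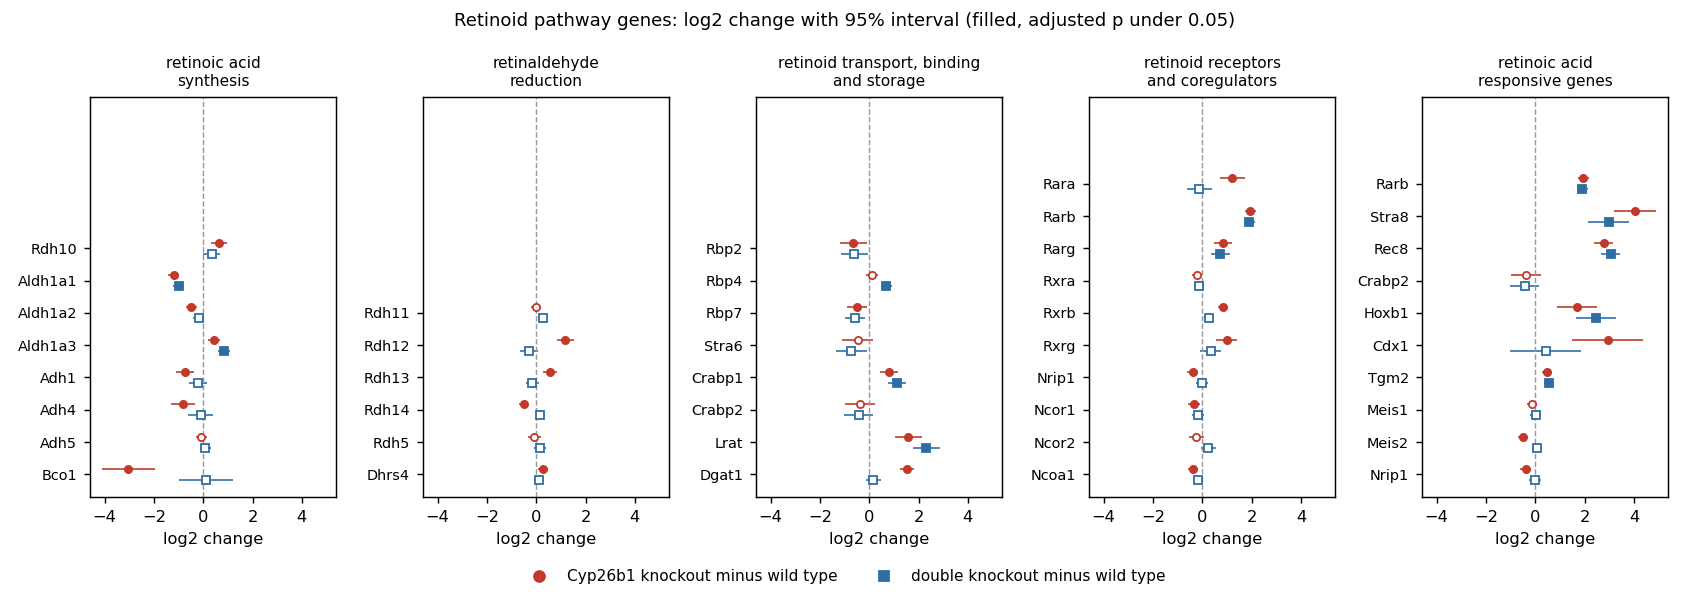
Log2 change against wild type of tested genes of 5 retinoid lists, with 95% intervals, in the KO-labelled (circles) and DKO-labelled arrays (squares), filled where the adjusted p was under 0.05. Both comparisons share the 2 wild-type arrays. Rarb, Rec8 and Lrat are filled above 0 in both (with normexp the last of these is at -0.07 in the KO-labelled arrays), Aldh1a1 is filled below 0 in both, and Bco1, Hoxb1 and Cdx1 are fitted values of genes not well above background in at least 1 genotype.

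The DKO-labelled arrays were also set against the KO-labelled ones for these lists. Of the synthesis genes 5 were higher and 0 lower by limma's adjusted p (median 0.36; 0 lower at an unadjusted p under 0.05 too), of the retinaldehyde reduction genes 2 and 2 (median 0.03), and of the transport and storage genes 3 and 1 (median 0.06). Of the receptor genes 2 were higher and 3 lower (median 0.01), and of the responsive genes 4 were higher and 2 lower (median 0.23). With the scaling of the authors' deposited value table, the medians of retinaldehyde reduction, transport and receptor genes change sign in the DKO-labelled arrays against wild type (-0.08, -0.03 and -0.08), and here those of all lists but synthesis do (-0.28, -0.25, -0.29 and -0.08, against 0.05 for synthesis). Of the synthesis calls, that of Aldh1a2 (0.30; limma, adjusted p = 0.0371) was lost under 10 of 16 alternatives, among them leaving out any array but double knockout replicate 1, and turned to -0.0027 with that scaling. That of Aldh1a3 (0.41; limma, adjusted p = 0.0136) was lost with that scaling (0.11), with normexp (0.41, adjusted p = 0.166) and without double knockout replicate 2 (0.33, adjusted p = 0.0796). By the processed signal Bco1 was at least 6.60-fold higher (limma, adjusted p = 0.00173). Rdh14 rose by 0.68 ± 0.08 (limma, adjusted p = 0.000816), Rbp4 by 0.57 ± 0.10 (limma, adjusted p = 0.0031) and Lrat by 0.72 ± 0.24 (limma, adjusted p = 0.0414). The Rdh14 call was kept under all 16 alternatives, that of Rbp4 was lost with the value table's scaling, and that of Lrat was lost under 11. Against wild type, Rdh14 fell in the KO-labelled arrays and did not pass in the DKO-labelled ones. Rdh12 fell by 1.48 ± 0.15 (limma, adjusted p = 0.000507), Dgat1 by 1.37 ± 0.12 (limma, adjusted p = 0.00039), Rara by 1.33 ± 0.22 (limma, adjusted p = 0.00274) and Stra8 by 1.05 ± 0.36 (limma, adjusted p = 0.0447). Rdh13 fell by 0.72 ± 0.12 (limma, adjusted p = 0.00269), Rxrb by 0.56 ± 0.08 (limma, adjusted p = 0.0016) and Rxrg by 0.67 ± 0.18 (limma, adjusted p = 0.0208). Against wild type these 6 genes, Rdh12, Rdh13, Dgat1, Rara, Rxrb and Rxrg, rose in the KO-labelled arrays and did not pass in the DKO-labelled ones. Dhrs4, which also did so, changed by -0.16 here and did not pass (limma, adjusted p = 0.173). With normexp, Bco1 (1.08), Rdh13 (-0.50), Rara (-0.11) and Rxrg (-0.42) did not pass. The Stra8 call was lost without either KO-labelled array (-0.98 and -1.13) and without either DKO-labelled array (-0.97 and -1.14), as well as with median scaling, without the filter on dim probes and without the intensity trend (adjusted p = 0.0517, 0.0694 and 0.0924), and the Rxrg call without Cyp26b1 knockout replicate 1 (-0.40) and without either DKO-labelled array (-0.67 and -0.66).

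The genes whose profile over the 6 arrays was nearest to that of each gene were ranked among 13297 others by the root mean square difference of log2 deviations from the gene's own mean. For Cyp26a1 these included Fabp4 (0.357), Lpar3 (0.386), Rnf138rt1 (0.877) and Stra8 (0.878). Fabp4, a fatty acid-binding protein gene, had log2 levels of 2.61 and 2.43 in the KO-labelled arrays, 3.16 and 2.98 in the DKO-labelled arrays, and -2.03 and -2.12 in the wild-type arrays. Unlike Cyp26a1 it was well above background on every array. For Dhrs3 the nearest were Tinagl1 (0.049), Lpo (0.0556), Htatip2 (0.0587), Nudt16 (0.0608) and Atoh8 (0.068). For Cyp26b1 they were Ppp1r14b (0.0397), Gid4 (0.054), Exosc9 (0.056), Dut (0.0569) and Pfpl (0.0581). Cyp26b1 and these 5 genes differed mostly between the 2 arrays of a genotype.

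**Figure D4:**
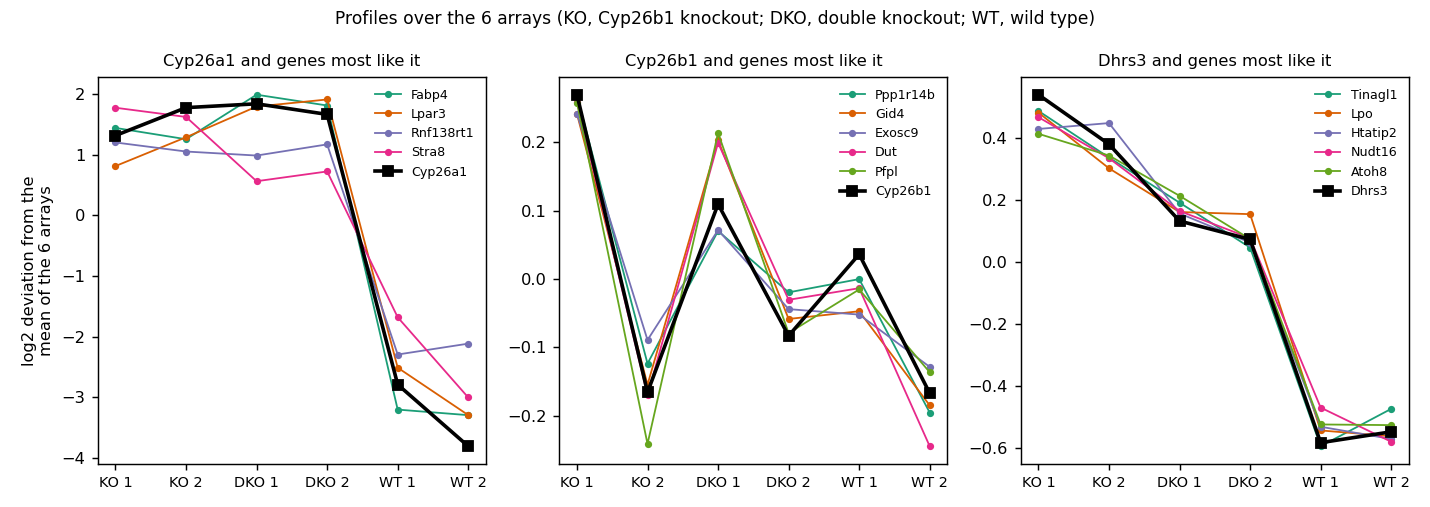
Log2 deviation of each gene from its mean over 6 arrays for Cyp26a1, Cyp26b1 and Dhrs3 (black) and genes nearest to each (colours), with y axes that differ between panels. Lines join the points of a gene and imply no order of the arrays. The Cyp26a1 and Dhrs3 profiles fall apart between mutant and wild-type arrays, and the Cyp26b1 profile differs mainly between the 2 arrays of each genotype.

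Single markers of the gonad's cell types passed the test in both directions on 7 of 8 lists in the KO-labelled arrays, and the mean levels of several lists overlapped between genotypes. The 8 Sertoli markers had mean log2 levels of 1.17 and 1.11 in the KO-labelled arrays, 1.08 and 0.99 in the DKO-labelled arrays, and 0.77 and 0.69 in the wild-type arrays. The gap between KO-labelled and wild-type arrays rests on 1 gene, Dmrt1, which rose by 2.86 in the KO-labelled and 1.22 in the DKO-labelled arrays. Over the other 7 markers the means were 1.37 and 1.29 in the KO-labelled arrays, 1.51 and 1.38 in the DKO-labelled arrays, and 1.36 and 1.18 in the wild-type arrays, where KO-labelled and wild-type arrays overlap. Of the 8, 4 rose and 2 fell in the KO-labelled arrays, and 2 rose and 2 fell in the DKO-labelled arrays. Amh and Ptgds, a hormone gene and a prostaglandin synthase gene, fell in both. Gata4 was counted as risen in the KO-labelled arrays by its brighter probe (0.53), while its other probe gave -0.32. Sox9 did not pass there on its brightest probe (0.06), while its other probes gave 0.79 and 0.79.

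The 5 endothelial markers had means of -0.03 and -0.0038 in the KO-labelled arrays, -0.11 and -0.24 in the DKO-labelled arrays, and -0.33 and -0.37 in the wild-type arrays, with no overlap. Without Pecam1, which rose by 1.58 in the KO-labelled arrays, they were 0.04 and 0.17 in the KO-labelled arrays, 0.30 and 0.14 in the DKO-labelled arrays, and 0.11 and 0.04 in the wild-type arrays, and KO-labelled and wild-type arrays overlapped. Of these markers 3 rose and 2 fell in the KO-labelled arrays. In the DKO-labelled arrays 1 rose and 0 fell by limma's adjusted p (0 lower at an unadjusted p under 0.05). Cdh5 was counted as fallen in the KO-labelled arrays by its brighter probe (-0.69), while its other probe gave 1.04. The endothelial means above also use the brighter Cdh5 probe. The 4 tested fetal Leydig markers had means of 3.56 and 4.01 in the KO-labelled arrays, 4.26 and 4.005 in the DKO-labelled arrays, and 4.61 and 4.43 in the wild-type arrays. Of them 3 fell in the KO-labelled arrays and 1, Star, a steroidogenic transport gene, fell in the DKO-labelled arrays. Without Star the Leydig means were 4.16 and 4.5985 in the KO-labelled arrays, 4.79 and 4.49 in the DKO-labelled arrays, and 4.94 and 4.72 in the wild-type arrays.

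The 5 germ cell markers had means of 3.01 and 2.55 in the KO-labelled arrays, 2.76 and 3.07 in the DKO-labelled arrays, and 2.60 and 2.61 in the wild-type arrays. Of them 2 rose and 1 fell in the KO-labelled arrays, and 2 rose and 0 fell in the DKO-labelled arrays by limma's adjusted p (0 lower at an unadjusted p under 0.05). The risen markers were Kit and Dazl in both. Without Kit the germ cell means were 3.64 and 3.08 in the KO-labelled arrays, 3.27 and 3.57 in the DKO-labelled arrays, and 3.40 and 3.40 in the wild-type arrays. All genotypes then overlapped. The 8 markers of mesonephros and ducts, tissue next to the gonad, had means of -2.37 and -2.85 in the KO-labelled arrays, -3.05 and -3.14 in the DKO-labelled arrays, and -2.83 and -2.32 in the wild-type arrays. Of them 2 rose and 3 fell in the KO-labelled arrays, and 0 rose and 2 fell in the DKO-labelled arrays by limma's adjusted p (0 higher at an unadjusted p under 0.05). Pax2 and Wnt9b of this list were dim. Cdh16 differed within genotypes, at -1.60 and -3.64 in the KO-labelled and -3.97 and -1.65 in the wild-type arrays. Lhx1 changed by -1.94 in the DKO-labelled arrays against wild type. Without Lhx1 the means were -2.88 and -3.00 in the DKO-labelled and -2.89 and -2.34 in the wild-type arrays, which overlap. Osr1, counted as fallen in the KO-labelled arrays (-0.70), gave 0.04 on its other probe.

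Of the 4 tested ovarian somatic markers, 2 rose and 1 fell in the KO-labelled arrays, where Wnt4 rose by 1.23 and Fst fell by 1.73. In the DKO-labelled arrays Wnt4 rose by 0.76, while Fst changed by -0.93 and did not pass (limma, adjusted p = 0.0583). Of 5 interstitial and peritubular markers 1 rose and 2 fell in the KO-labelled arrays. There the brighter Pdgfra probe gave -1.07 and its other probe 0.74, so the direction of Pdgfra is not settled. In the DKO-labelled arrays 0 of these 5 passed by limma's adjusted p (0 at an unadjusted p under 0.05). Of 6 blood and macrophage markers 2 rose and 2 fell in the KO-labelled arrays, and 0 passed in the DKO-labelled arrays by limma's adjusted p (1 higher and 1 lower at an unadjusted p under 0.05). Over all tested markers, the means of these 3 lists overlapped between KO-labelled and wild-type arrays. Without Fst the ovarian somatic means were 0.59 and 0.20 in the KO-labelled and -0.15 and -0.18 in the wild-type arrays, with no overlap. Without Alas2 the blood and macrophage means were -0.28 and -0.17 against -0.34 and -0.35, also with no overlap. Without Pdgfra the interstitial and peritubular means, 3.16 and 3.52 against 3.31 and 3.09, still overlapped. The part of these markers in the results for Cyp26a1 and Dhrs3 was not tested.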

How the data were processed

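The members and gene lists were chosen with earlier results of these data known. The authors deposited 1 scanner file per array holding spot intensity on a linear scale, background-subtracted and detrended by Agilent Feature Extraction (9.5.3.1 per the file headers, 9.5 per the submitters' processing notes), with no scaling between arrays. They also deposited a value table with 1 linear ratio per genotype, whose scaling and centring are not given in the sources used here. Its direction follows from log2 differences that correlated with those of the scanner files (r 0.9999 or more over 24508 probes). Its column medians were 1.12 (Cyp26b1 knockout), 0.959 (double knockout) and 0.9998 (wild type).

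The log2 processed signal was centred on each array's 75th percentile. Control and outlier-marked spots were left out and spots of one probe averaged. A probe was tested where some genotype had it well above background on its 2 arrays, giving 27867 of 41149 probes. One fit over all 6 arrays used limma 3.58.1 in R 4.3.3 (lmFit, eBayes with an intensity trend; 3 residual degrees of freedom), two-sided, with Benjamini-Hochberg adjustment over all tested probes and a threshold of 0.05. The fit was tested on simulated data. With 2 arrays per genotype no exact permutation test can pass that threshold. The number of arrays limits the precision.

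Accessions were matched without versions to RefSeq symbols (GRCm38.p6). Of 41174 probes, 23374 matched 1 gene, 0 several and 17800 none. The array's own build is older, so only promoter windows have coordinates. A gene other than Dhrs3 is shown by its brightest probe. Of each pathway list the text names up to 4 genes with the smallest adjusted p in any comparison, all members with every probe, and the 5 genes nearest in profile to each; 2 of the genes so chosen are counted in their lists but not reported here. Crabp2 was named after its values were seen. For a gene dim in 1 genotype, the fold is a bound: the brighter mean over the higher of the gene's own dim signal and the array's lowest signal that is well above background. Such a bound holds for the processed signal only, and normexp gave smaller changes for Bco1. Alternatives changed the scaling, background correction, filter, moderation, arrays used and source of the values. The files hold median rather than mean spot signals, so normexp was run on medians.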

Additional observations from a re-analysis of the deposited data

How the results depend on the processing

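Cyp26a1 and both Dhrs3 probes stayed past the threshold and higher than wild type in both mutants under every alternative that gave them a test, and Cyp26b1 passed under none. Leaving out 1 array gave Cyp26a1 changes of 4.34 to 5.35 (Cyp26b1 knockout) and 4.54 to 5.56 (double knockout) and an adjusted p of at most 0.0487 for Dhrs3. Requiring every array above background left Cyp26a1 without a value. Its wild-type signal lies near background, and the fold is limited by it.

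Between the mutants, the brighter Dhrs3 probe lost its call with normexp (-0.37, marked spots left out or not), and leaving out 1 array gave -0.44 to -0.28. With the scaling of the value table the dimmer probe passed (-0.52). The deposited value table, which allows no test, gave the brighter Dhrs3 probe 1.13 and 0.47 against wild type and -0.66 between the mutants, the dimmer probe 0.79 (double knockout against wild type) and -0.52 (between the mutants), and Cyp26b1 -0.34 between the mutants. The shifts between tables account for these moves by construction.

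Of 36 calls of the named pathway genes, 8 were lost without at least 1 array. With normexp, 16 were lost and Rara (-0.44) and Lrat (-0.0736, or -0.0741 with marked spots left out) turned lower in Cyp26b1 knockout. Median scaling and no filter lost 2 each, no trend 4, a fit of 2 genotypes 3 and quantile scaling 1. With the value table's scaling, 3 were lost and Aldh1a2 turned from higher to -0.0027 between the mutants.

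Counts of called probes moved more. Higher and lower calls numbered 7021 and 7858 for Cyp26b1 knockout against wild type, 1419 and 1800 for double knockout against wild type, and 6600 and 6226 between the mutants. With normexp they were, in the same order of comparisons, 2303 and 2301, 346 and 224, and 1916 and 1674; with marked spots left out, 2303 and 2297, 346 and 224, and 1911 and 1671. Without the filter, double knockout against wild type gave 915 and 1082, and 11927 were higher between the mutants. Without the trend, 907 were higher in double knockout. With the value table's scaling they were 807 and 5764 for double knockout against wild type and 2572 and 10743 between the mutants. Leaving out 1 array gave 315 to 1557 and 309 to 1966 for double knockout against wild type. The causes were not tested.

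Nothing in the sources used here says whether same-numbered arrays shared more than a number. The correlations of their deviations were 0.10 (Cyp26b1 knockout with wild type), 0.22 (double knockout with wild type) and 0.11 (between the mutants). With the array number as a replicate block the counts were, in that order of comparisons, 7250 and 8321, 1574 and 2071, and 7065 and 6494, and no call of a member changed. A slide block was not run, because each genotype lay on its own slide.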

Other observations

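Genes of the same enzyme families and genes next to the members on the chromosome were listed after the files were seen. Of 39 other tested cytochrome P450 genes, 14 rose and 9 fell in the KO-labelled arrays, against 23.9% and 30.5% of all genes, with a median log2 change of 0.16. In the DKO-labelled arrays 1 rose and 2 fell, against 6.86% and 6.34% of all genes, with a median of -0.09. Of 17 other Dhrs and Rdh genes, some of them on the lists above, 6 rose and 4 fell in the KO-labelled arrays (median 0.03) and 1 rose and 1 fell in the DKO-labelled arrays (median 0.04). The shares of all genes to set beside these counts are the same as for the cytochrome P450 genes.

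In the RefSeq gene order Cyp26c1 lies directly before Cyp26a1 on chromosome 19, and the gene before Cyp26c1 is Exoc6, which encodes a part of the exocyst complex. The log2 level of Exoc6 fell by 0.78 in the KO-labelled arrays (limma, adjusted p = 0.00127) and changed by -0.06 in the DKO-labelled arrays. Tnfrsf1b, a tumour necrosis factor receptor gene after Dhrs3, rose by 1.21 in the KO-labelled arrays (limma, adjusted p = 0.0016) and changed by 0.27 in the DKO-labelled arrays. Dysf, the muscle membrane repair gene before Cyp26b1, changed by 0.20 in the KO-labelled and -0.24 in the DKO-labelled arrays.

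In the authors' deposited table the ratios of Cyp26a1 were 1.11 in Cyp26b1 knockout, 1.04 in double knockout and 0.0361 in wild type. Those of Cyp26b1 in the authors' deposited table were 1.21 in Cyp26b1 knockout, 0.958 in double knockout and 1.04 in wild type.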
